A study of Homo sapiens with 8 samples.

Results

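Of the 15412 PML::RARA peaks of U937-PR9 cells after induction, 46 carried the symbol of a chaperone gene, and these 46 peaks are described here. They were chosen by symbol alone, among the 7169 peaks that the authors had labelled with a gene because the apex overlapped its promoter. Taken were all symbols starting with HSPA, HSPB, HSPD, HSPE, HSPH, HSP90, DNAJA, DNAJB or DNAJC, or with CCT and a digit, and TCP1. The 46 peaks belonged to 43 symbols on 17 chromosomes, and the remaining 7123 labelled peaks served as the comparison. The rule uses symbols and no measured value, although it was set with earlier results of these data known.

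U937-PR9 is a human monocytic cell line that carries a PML::RARA transgene, the fusion found in acute promyelocytic leukemia, behind a promoter that responds to zinc. The series holds 8 Cut&Run libraries, 2 replicates each of an anti-PML::RARA and an anti-RARA antibody in cells given 100 μM ZnSO4 or water for 5 h. In Cut&Run, a nuclease tethered to the antibody cuts out the DNA next to the bound protein, and the released fragments are sequenced. Only the anti-PML::RARA peaks of the zinc-treated cells, called against the paired control and reproducible between the 2 replicates, were analysed here. The model is a single cell line with a transgene. The series holds no zinc-treated cells without that transgene, so that zinc and the fusion protein cannot be told apart in this list. A single set of values is given for a peak, which leaves the spread of the replicates unknown and allows no test over samples. The comparisons below are therefore descriptions within the list, and intervals of shares are Wilson 95% intervals that cover the counting of peaks or genes only. Depth per library is unknown. Peak height is the largest signal inside a peak, peak width is its length, and the apex is the midpoint of the stretch with the largest signal. Positions refer to hg19 and annotations to GENCODE release 44 on the same build.

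Chaperones help other proteins to fold, keep them from clumping and prepare damaged ones for removal. Hsp70 proteins bind and release unfolded chains in a cycle that J proteins switch on and Hsp110 proteins reset, Hsp90 matures receptors and kinases, small heat shock proteins hold unfolded chains without using ATP, and the chaperonins enclose them in a chamber. Many of these genes are used in every cell, and a subset is raised under stress by heat shock factor HSF1, which binds the heat shock element, a row of alternating GAA and TTC units.

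A heat shock element of at least 3 units, each separated from the next by 2 bases, lay somewhere in 10 of the 46 chaperone peaks. Only the chaperone peaks were searched over their whole length, so this count has no counterpart in the other peaks. Within 200 bp of the apex, the element lay in 7 of the 46 (15.2%), beside 21 of the 7123 other labelled peaks (0.295%) and 0.570% of unlabelled peaks. All elements in the 10 peaks are shown because this was the motif whose share within 200 bp differed most, as a ratio, from that of the other labelled peaks. The sequences are those of the GRCh37 reference, written 5′ to 3′ on the strand of the gene. Capitals mark the element from its first to its last unit, including the spacer bases.
HSPD1, chr2:198364786-198364815, minus strand: ggcattTTCTGGAAAGTTCTGGAAccgagc
HSP90AB1, chr6:44215507-44215535, plus strand: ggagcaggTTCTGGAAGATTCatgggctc
HSP90AB1, chr6:44215560-44215588, plus strand: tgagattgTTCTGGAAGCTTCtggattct
HSPB1, chr7:75932931-75932960, plus strand: atcgaaGAACTTTCCGGAAGTTTCtgagag
DNAJB6, chr7:157129559-157129587, plus strand: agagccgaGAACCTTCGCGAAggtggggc
DNAJA1, chr9:33025266-33025294, plus strand: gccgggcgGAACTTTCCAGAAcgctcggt
DNAJB5, chr9:34989295-34989323, plus strand: cgcaagggTTCCAGAAGGTTCtcctggga
HSPA8, chr11:122932879-122932907, minus strand: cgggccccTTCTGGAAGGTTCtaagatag
HSPA8, chr11:122933054-122933082, minus strand: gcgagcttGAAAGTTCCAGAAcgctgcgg
HSPH1, chr13:31736080-31736108, minus strand: gccgcagaTTCTGGAAAGTTCtgatcagt
HSP90AA1, chr14:102553449-102553477, minus strand: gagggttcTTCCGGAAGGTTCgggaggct
CCT8, chr21:30445709-30445737, minus strand: ggggaagaGAAGATTCCAGAAagggaggt

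The elements of HSPD1 and HSPB1 had 4 units and the other 10 had 3. Those of HSPD1, DNAJB6, DNAJB5, HSPA8, HSPH1 and HSP90AA1 lay upstream of the canonical start site, at distances between 49 bp in HSPA8 and 433 bp in DNAJB5. In the canonical transcript, the DNAJA1 element lay in the 5′ UTR in exon 1, and those of HSP90AB1, HSPB1 and CCT8 lay in intron 1. Relative to another annotated start of the same gene, the HSP90AB1 elements lay 82 bp and 29 bp upstream. Those of HSPB1 and CCT8 lay 51 bp and 30 bp downstream of such a start. The HSPA5 peak held no such row, but it was the only chaperone peak with the endoplasmic reticulum stress element within 200 bp of the apex. This element consists of CCAAT, then 9 bases, then CCACG, which the capitals mark, and it lay 57 bp upstream of the start site. This was 1 of 46 chaperone peaks, 2.17% (interval 0.385 to 11.3), beside 13 of the 7123 other labelled peaks (0.183%) and 0.0607% of peaks without a label.
HSPA5, chr9:128003665-128003693, minus strand: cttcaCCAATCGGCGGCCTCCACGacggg

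Chaperone genes carried a PML::RARA promoter peak more often than protein-coding genes as a whole. The annotation holds 86 protein-coding genes with a symbol of this kind. Of these, 41, or 47.7% (interval 37.4 to 58.1), had a peak with their own label, beside 30.0% of all 20090 protein-coding genes. Another 2 labelled symbols, HSPB11, which the annotation calls IFT25, and the pseudogene CCT6P3, are not among the 86. By position, 58 of the 86 genes, or 67.4% (57.0 to 76.4), had an apex within 1 kb of a start site, beside 39.3% of all protein-coding genes. The labels thus missed 17 of the 58 genes with a peak at the start site, or 29.3%, which was close to the 26.0% among all protein-coding genes with such a peak. In 14 of them the peak carried the symbol of another gene and in 3 it carried none. The remaining 28 genes had no apex within 1 kb. Some of the 58 genes share a peak, namely HSPD1, HSPE1 and HSPE1-MOB4, HSPA1A and HSPA1L, and DNAJC25 and DNAJC25-GNG10. The share and its interval count these as separate genes.

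**Figure D1:**
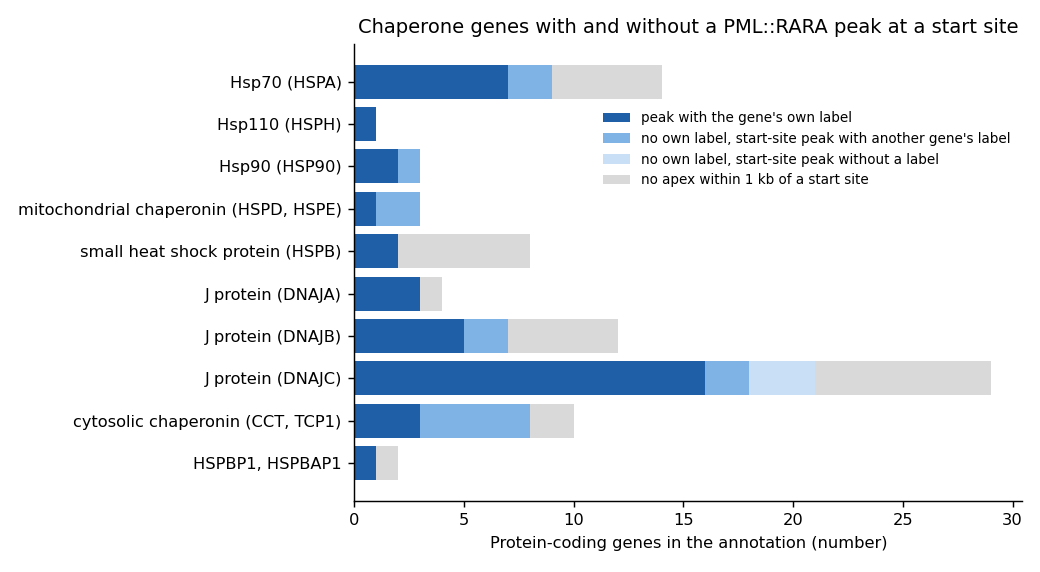
Stacked bars give the number of protein-coding chaperone genes (x axis) in each family (y axis) by the kind of PML::RARA peak at their start sites. Own labels reached 7 of 14 Hsp70 genes and 16 of 29 DNAJC genes, while 5 of the 10 CCT genes had a start-site peak under another gene's symbol and 6 of 8 small heat shock protein genes had none. Over all protein-coding genes, 30.0% had an own label and 39.3% an apex within 1 kb of a start site.

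The families differed in these counts, although several of them hold few genes. Over all protein-coding genes, 39.3% had an apex within 1 kb of a start site. All 3 Hsp90 genes and HSPH1 had a start-site peak, as did 8 of the 10 CCT genes and 21 of the 29 DNAJC genes. All 3 genes of the mitochondrial chaperonin, including the HSPE1-MOB4 readthrough, had one too and shared the same peak. The Hsp70 family had 9 of 14, DNAJA 3 of 4 and DNAJB 7 of 12. In contrast, only HSPB1 and HSPB6 of the 8 annotated small heat shock protein genes had a peak. Among the genes without an apex within 1 kb were HSPA2, HSPA4L, HSPA6, HSPA12A and HSPA12B of the Hsp70 family. For HSPA6, a strictly heat-inducible Hsp70, the nearest apex lay 6398 bp from a start site. HSPB2, the HSPB2-C11orf52 readthrough, HSPB3, HSPB7, HSPB8 and HSPB9 had none either. The others were DNAJA4, DNAJB4, DNAJB7, DNAJB8, DNAJB13, DNAJB14, DNAJC5, DNAJC5G, DNAJC6, DNAJC12, DNAJC15, DNAJC19, DNAJC22, DNAJC24, CCT4, CCT8L2 and HSPBAP1. A gene without a peak is one not in the reproducible list, and whether a weaker signal lay there could not be seen.

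In height, the chaperone peaks lay somewhat above the other labelled peaks. Their heights ran from 16 to 83 with a median of 31 and quartiles of 22.3 and 39.5, whereas the others ran from 13 to 86 with a median of 26 and quartiles of 20 and 35. Of the 46 peaks, 30 (65.2%) exceeded the median of the others, beside 48.4% of the others themselves. In the tails, 13 chaperone peaks (28.3%) lay above the upper quartile of the others beside 23.2%, 4 (8.70%) above their 95th percentile of 50 beside 4.77%, and 7 (15.2%) below their lower quartile beside 21.5%. The quartile ranges overlapped broadly. Peak widths were alike, with medians of 1135 bp and 1108 bp, and this difference of 27 bp became −12 bp when labelled peaks less than 1 kb apart were merged. Mean signal per base had a median of 10.3 in chaperone peaks and 9.08 in the others, and total signal had closer medians of 10647 and 10079. The GC content was the same, with a median of 64.3% in both sets, beside 52.9% in the 8243 peaks without a label.

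**Figure D2:**
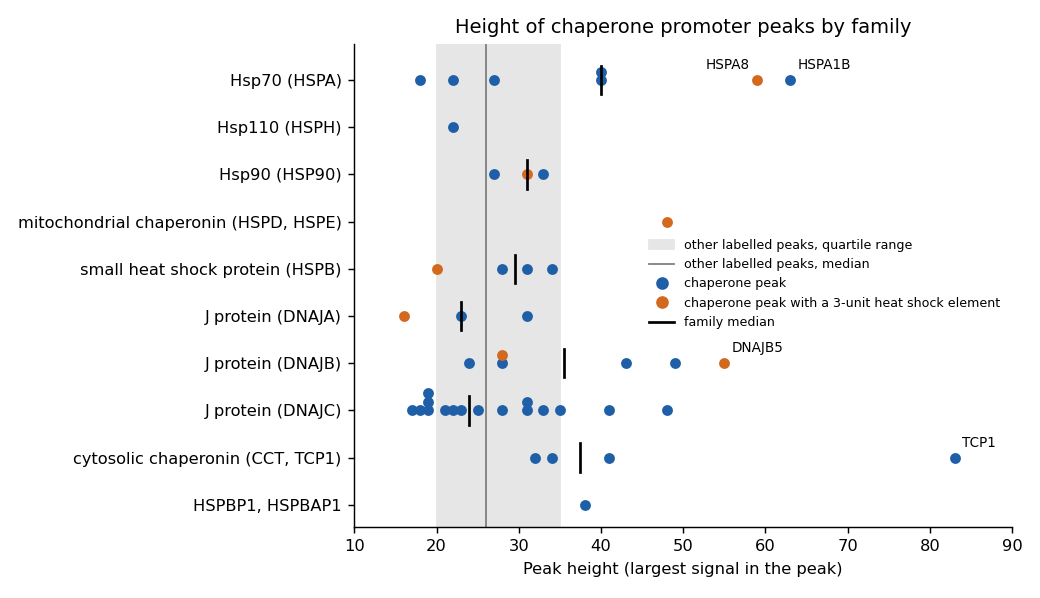
Each dot is a chaperone peak, placed by its height (largest signal, x axis) and its family (y axis), with a black line at the family median. The grey band spans the quartiles of the other labelled peaks, 20 to 35, and the 4 named peaks of TCP1, HSPA1B, HSPA8 and DNAJB5 lie at 83, 63, 59 and 55.

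The 7 Hsp70 peaks had heights of 18 in HSPA4, 22 in HSPA1L, 27 in HSPA13, 40 in HSPA5 and HSPA9, 59 in HSPA8 and 63 in HSPA1B. The family median of 40 was the highest of the families with more than 1 gene labelled, and 5 of the 7 peaks were above the median of the other labelled peaks. HSPA1B (ENSG00000204388) encodes a stress-inducible cytosolic Hsp70. Its peak, chr6:31794514-31795742, was 1229 bp wide, was higher than 99.2% of labelled peaks and had its apex 346 bp upstream of the start. HSPA8 (ENSG00000109971), the constitutive cytosolic Hsp70, had the widest peak of the family, chr11:122932105-122934033, with 1929 bp. It was higher than 98.5% of labelled peaks and held both elements printed above, 115 bp and 60 bp from its apex. HSPA5, the Hsp70 of the endoplasmic reticulum known as BiP, had a peak of 1288 bp at chr9:128003397-128004684, and HSPA9, the mitochondrial Hsp70, had a peak of 1166 bp at chr5:137910580-137911745. Both were higher than 84.3% of labelled peaks. At the low end stood HSPA4, an Hsp110-like nucleotide exchange factor despite its symbol, whose peak chr5:132387077-132387781 was higher than 11.3% and 705 bp wide.

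HSPA1A, the nearly identical neighbour of HSPA1B, had no label of its own. The closest apex was that of the HSPA1L peak, chr6:31782295-31783042, which lay in intron 1 of HSPA1L and 854 bp upstream of the HSPA1A start, with a height of 22. This was also the member peak whose apex lay farthest from any start site of its own gene, at 594 bp. Copies of this kind can share reads, so the overlap in sequence was counted. Of the 1180 words of 50 bases in the HSPA1B peak, 0 occurred in HSPA1A or within 2 kb of it, although 1766 of the 2468 words of the HSPA1B gene (71.6%) did. Only exact words were counted, and whether reads with mismatches could be placed apart was not tested. Between the genes lay an unlabelled peak, chr6:31789358-31790610, with a height of 41 and its apex 6724 bp from the HSPA1A start. HSPA14, a ribosome-associated Hsp70, had a start-site peak of height 17 under the label CDNF.

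HSPH1, the Hsp110 exchange factor of Hsp70, had a peak of height 22 and width 1269 bp at chr13:31735419-31736687. It was higher than 30.8% of labelled peaks, and its heat shock element lay 444 bp from the apex and 53 bp upstream of the canonical start. HSPBP1, another exchange factor, entered the members by its letters only and had a peak of height 38 and width 1190 bp.

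The 3 labelled Hsp90 peaks, of 2 genes, were wide rather than high. HSP90AB1, the constitutive cytosolic Hsp90, had a peak of 2354 bp at chr6:44213394-44215747, wider than 94.0% of labelled peaks, and its height of 27 exceeded 51.5% of them. HSP90AA1, the inducible cytosolic form, had a peak of 2550 bp at its canonical start (chr14:102552698-102555247), wider than 95.4%, with a height of 31. Its other peak, chr14:102605368-102607172, was 33 high and 1805 bp wide. That peak lay 52827 bp upstream of the canonical start, 172 bp upstream of the start of another annotated transcript and 4 bp from a start of the neighbouring gene WDR20. The HSP90AA1 and WDR20 starts cannot be told apart as its place of binding. The endoplasmic reticulum form HSP90B1 had no label, but an apex 65 bp downstream of a start site in a peak labelled TTC41P, chr12:104322525-104324935. It was 2411 bp wide, and with a height of 52 it was higher than 95.7% of labelled peaks.

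HSPD1 and HSPE1, the chamber and the lid of the mitochondrial chaperonin, are arranged head to head and shared a single peak labelled HSPD1. It spanned chr2:198363550-198365441 and was 48 high and 1892 bp wide, higher than 93.3% and wider than 86.3% of labelled peaks. Its apex lay 14 bp from a start site of HSPD1 and 54 bp from one of HSPE1, so a value for either gene alone cannot be given. The element of 4 units lay 118 bp from this apex.

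The small heat shock proteins had 4 peaks of 3 symbols with a median height of 29.5. HSPB1, which encodes Hsp27, had 2 narrow peaks. The upstream peak, chr7:75931539-75932031, had a height of 28, a width of 493 bp and an apex 142 bp before the start, and the other, chr7:75932642-75933151, had a height of 20, the lowest of the family, and a width of 510 bp. The latter lay in intron 1, with its apex 987 bp downstream of the canonical start and 83 bp downstream of another annotated start. Its element of 4 units lay 32 bp from the apex. HSPB6, abundant in muscle, had a height of 31. Its apex lay 938 bp upstream of the canonical start, 112 bp downstream of another annotated start and 176 bp from a start of PROSER3. HSPB11 had the highest and widest peak, 34 and 1821 bp (chr1:54410696-54412516), but it encodes a subunit of the intraflagellar transport machinery and lay 114 bp from a start of LRRC42.

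J proteins gave 25 of the 46 peaks, with a median height of 28 beside 33 in the 21 other chaperone peaks. Within them, the DNAJB peaks (median 35.5, 24 to 55) were higher than the DNAJA peaks (23, 16 to 31) and the DNAJC peaks (24, 17 to 48), although the ranges overlapped. Of the 16 DNAJC peaks, 7 exceeded the median of the other labelled peaks, compared with 5 of the 6 DNAJB peaks.

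Among the DNAJA proteins, co-chaperones related to bacterial DnaJ, DNAJA1 had the lowest peak of all 46. Its height of 16 exceeded only 0.195% of labelled peaks, although it was 1137 bp wide (chr9:33024885-33026021). Its heat shock element lay 85 bp from the apex of this low peak. DNAJA2 had the widest peak of the group, 1279 bp with a height of 23, and the mitochondrial DNAJA3 the highest, 31, with its apex 11 bp from a start of CORO7.

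The DNAJB group was led by DNAJB5, a J protein related to DNAJB1, with a height of 55 at chr9:34988702-34989794, higher than 97.2% of labelled peaks. DNAJB1, the main heat-inducible partner of Hsp70 in the cytosol, had 2 peaks. At its canonical start the peak chr19:14628617-14629924 was 43 high and, with 1308 bp, the widest of the group. A peak of height 49 and width 1069 bp, chr19:14639695-14640763, had its apex 10959 bp upstream of the canonical start, 10 bp from the start of another annotated transcript and 223 bp from a start of TECR. Neither held a 3-unit element, and the peak at the canonical start held a pair. DNAJB2 and DNAJB6 had a height of 28 each, and DNAJB12, an endoplasmic reticulum membrane protein, the lowest with 24. DNAJB11, an endoplasmic reticulum partner of HSPA5, had a peak of height 51 under the label TBCCD1, and DNAJB9 had one of 23 under THAP5.

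DNAJC proteins share the J domain but little else. The highest peak was that of DNAJC17 (48, chr15:41099200-41100460), whose apex lay 23 bp from a start of ZFYVE19, followed by DNAJC14 with 41. DNAJC27 had the widest, 1486 bp, with a height of 35. The lowest, of height 17, was that of DNAJC8 (chr1:28558934-28559690). The other 12 labels ranged from 18 in DNAJC25-GNG10 to 33 in DNAJC21 and comprised DNAJC1, DNAJC2, DNAJC7, DNAJC9, DNAJC10, DNAJC11, DNAJC13, DNAJC18, DNAJC28 and DNAJC30 besides these. None of the 16 peaks held a 3-unit heat shock element anywhere. DNAJC16 had a higher start-site peak than any of them, 61, but it was labelled CASP9. DNAJC25 shared the peak of its readthrough, while DNAJC3, DNAJC4 and DNAJC5B had unlabelled peaks with heights between 25 and 26.

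TCP1 (ENSG00000120438), subunit alpha of the cytosolic chaperonin that folds actin and tubulin, had the highest and widest of the 46 peaks. The peak chr6:160209727-160212607 was 83 high and 2881 bp wide, higher than 99.9% and wider than 97.1% of labelled peaks, and its total signal of 60831 was the largest among the members. TCP1 faces MRPL18, a mitochondrial ribosome gene, and the apex lay 141 bp upstream of a TCP1 start and 32 bp from an MRPL18 start. The peak therefore cannot be assigned to TCP1 alone. The other labelled members were CCT3 with a height of 41, the pseudogene CCT6P3 with 34 in the narrowest peak, 267 bp, and CCT8 with 32, the lowest. Whether reads at CCT6P3 could be placed apart from its paralogs was not tested. Counting peaks under other labels, 7 of the 8 subunits of the ring had a start-site peak. Those of CCT2, CCT5, CCT6A and CCT7 had heights of 18, 25, 37 and 30 under the symbols MIR3913-1, ATPSCKMT, PSPH and PRADC1. CCT4 had its nearest apex 22490 bp away. Across the ring, heights thus ran from 18 to 83, where the 83 is that of the peak at the TCP1 and MRPL18 starts. CCT6B, a testis form, had a peak of height 23 labelled LIG3.

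**Figure D3:**
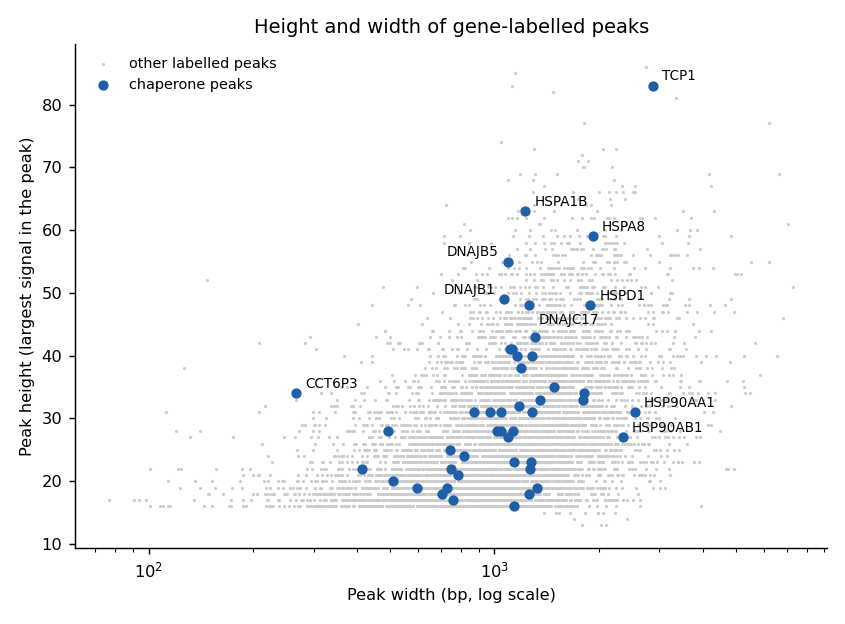
Height (y axis) is plotted against width on a log scale (x axis) for the 46 chaperone peaks (blue) and the 7123 other labelled peaks (grey). TCP1 sits at the upper right edge with 83 and 2881 bp, the HSP90AA1 and HSP90AB1 peaks are wide at moderate height, and CCT6P3 is the narrowest with 267 bp.

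All 46 apexes lay within 1 kb of an annotated start site of the labelled gene, at a median distance of 87 bp, and 25 lay within 100 bp. Among the 6937 other labelled peaks whose symbol occurs in the annotation, 92.3% lay within 1 kb and the median was 102 bp. The label was given for overlap with a promoter, so nearness to the start follows from it in both sets. Relative to the nearest own start, 28 chaperone apexes lay upstream and 18 at it or downstream. Relative to the canonical transcript, 37 lay upstream, 5 in the 5′ UTR, 3 in an intron and 1 in a coding exon. A start site of another protein-coding gene lay within 1 kb of the apex in 15 of the 46 peaks (32.6%), beside 20.8% of the other labelled peaks. No interval was computed for this share. In 14 of the 15 that start lay on the opposite strand, as at HSPD1, TCP1, CCT3, DNAJA1, DNAJA3 and DNAJC17. The strand was not counted for the other labelled peaks. The remaining peak was that of the DNAJC25-GNG10 readthrough, whose nearest other gene was DNAJC25 itself.

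**Figure D4:**
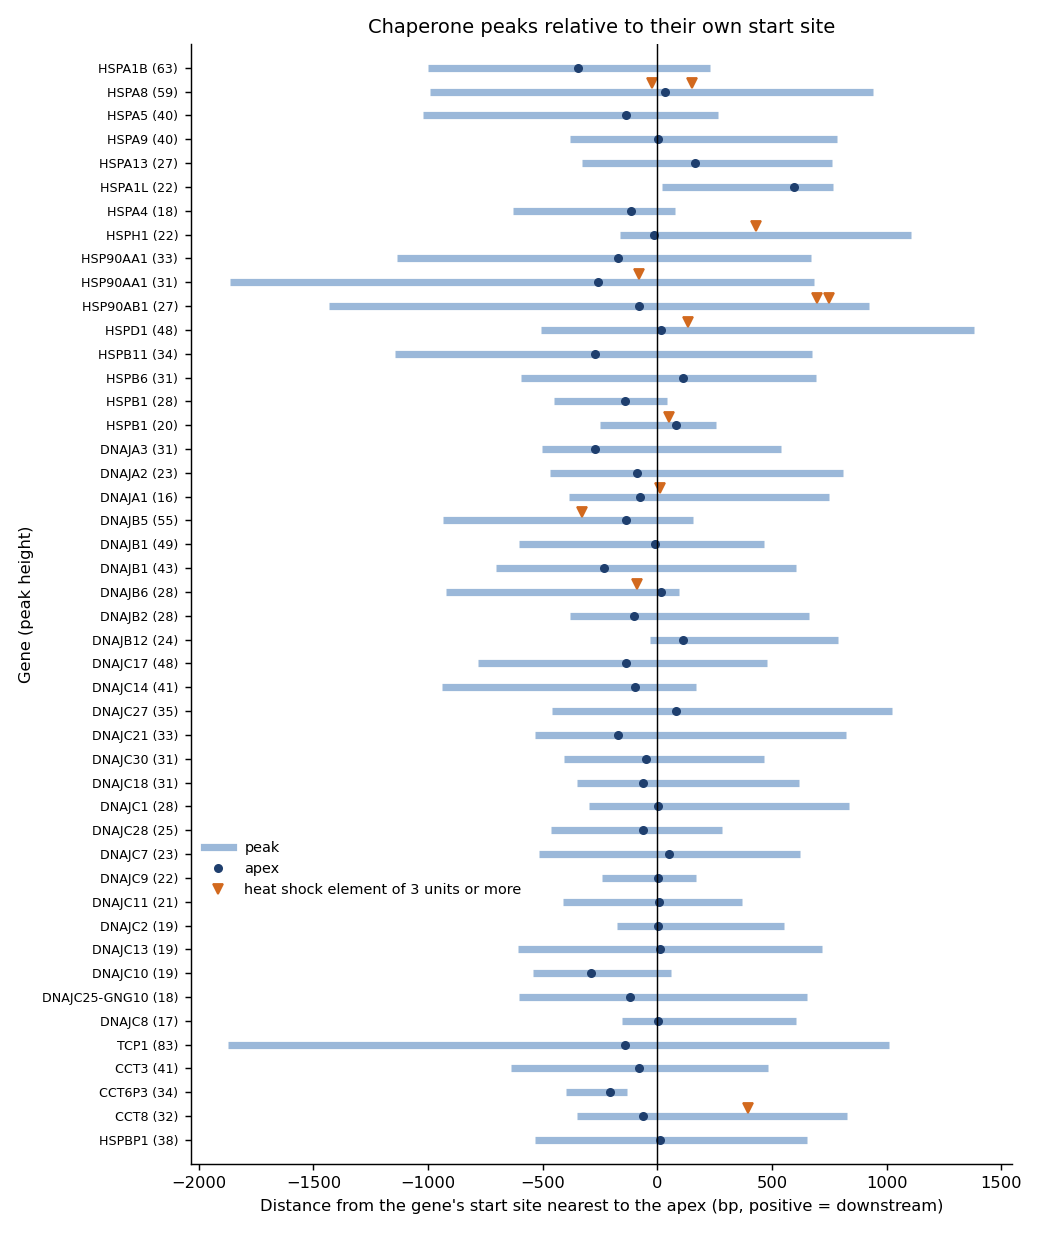
Each row is a chaperone peak, with its height in parentheses, drawn as a bar around the start site of its gene nearest to the apex (x axis in bp, positive downstream). The apexes (dots) lie between 346 bp upstream (HSPA1B) and 594 bp downstream (HSPA1L), and triangles mark the 12 heat shock elements of 3 or more units in 10 peaks.

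The 200 bp to either side of the apex were searched for motifs, reading both strands. At least 3 heat shock units were found in 7 of the 46 chaperone peaks, 15.2% (interval 7.57 to 28.2), beside 21 of the 7123 other labelled peaks, 0.295%, and 0.570% of unlabelled peaks. The 7 were the peaks of HSPD1, HSPB1 in intron 1, DNAJB6, DNAJA1, DNAJB5, HSPA8 and HSP90AA1 at the canonical start. A window of 100 bp left 6.52% beside 0.183%, and one of 500 bp gave 19.6% beside 0.969%. Pairs of units, GAANNTTC or TTCNNGAA, occurred in 14 chaperone peaks (30.4%) and in 12.9% of the others, and every 3-unit element contains such pairs. Where no 3-unit element lay, a pair was found in 7 of 39 chaperone peaks (17.9%, interval 8.98 to 32.7) and in 12.6% of the others.

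The endoplasmic reticulum stress element given above rests on 1 chaperone peak, too few to compare shares. For the remaining motifs, the shares in chaperone peaks and in the other labelled peaks follow. The ETS motif CCGGAAG was found in 10 chaperone peaks (21.7%) and 21.8% of the others, and in HSPB1 and HSP90AA1 it overlapped a heat shock element. The NRF1 motif GCATGCGC was found in 6.52% and 6.18%, CCAAT in 45.7% and 44.1%, the GC box GGGCGG in 84.8% and 76.1%, and TATAAA in 4.35% and 5.43%. The nuclear receptor hexamers AGGTCA or GGGTCA, the recognition unit of RARA and its relatives, were found in 15 chaperone peaks (32.6%) and 33.1% of the others, beside 44.5% of peaks without a label. A match is a run of letters and not evidence of a bound factor.

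**Figure D5:**
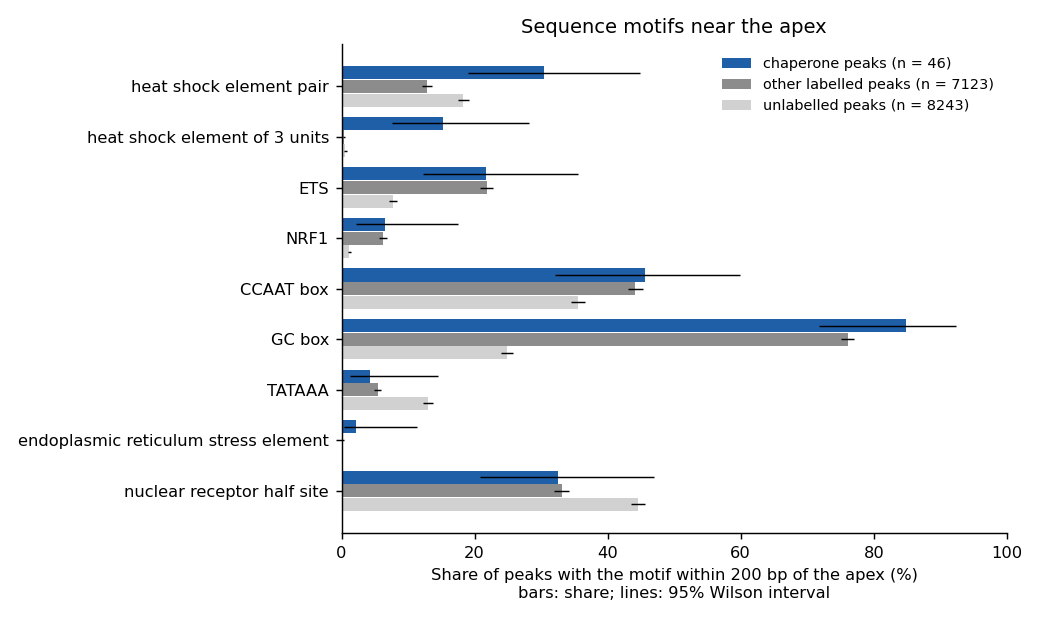
Bars give the share of peaks with a motif within 200 bp of the apex (x axis, percent) for chaperone, other labelled and unlabelled peaks, and lines are 95% Wilson intervals. The 3-unit heat shock element was at 15.2%, 0.295% and 0.570%, while ETS, NRF1, CCAAT and nuclear receptor motifs had nearly equal bars in chaperone and other labelled peaks.

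Heights were also compared between peaks with and without at least 3 units within 200 bp of the apex. The 7 chaperone peaks with at least 3 units near the apex ranged from 16 in DNAJA1 to 59 in HSPA8, with a median of 31, and the other 39, which include the HSP90AB1, HSPH1 and CCT8 peaks with an element farther out, ranged from 17 to 83, also with a median of 31. Among the other labelled peaks, the medians were 27 in the 21 with the element and 26 in the rest.

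The element was also counted at start sites irrespective of peaks, from 500 bp before to 50 bp after the canonical start of each protein-coding gene. It occurred in 11 of the 86 chaperone genes (12.8%) and in 141 of the 19726 other genes with such a window (0.715%). Of the 58 chaperone genes with an apex within 1 kb, 9 (15.5%) held it, and of the 28 without, 2 (7.14%) did, namely CCT4 and HSPA6. Of the 9, HSPD1, HSPE1 and HSPE1-MOB4 share a promoter region and the element of 4 units printed above, which is thus counted for 3 genes. Among the other genes, the shares were 0.523% with an apex and 0.841% without. The excess of the element over other genes was also present at chaperone start sites counted without regard to peaks.

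Further genes of the chaperone system, 62 in 5 lists, had a labelled peak in 35 cases (56.5%) and an apex within 1 kb of a start site in 44 (71.0%), beside the 30.0% and 39.3% of all protein-coding genes. Their 39 labelled peaks had a median height of 30. Genes of folding in the endoplasmic reticulum were labelled in 8 of 10 cases with a median height of 43, among them the lectin chaperones CANX with 57 and CALR with 44 and the disulfide isomerase P4HB with 56 in a peak of 3262 bp. Co-chaperones were labelled in 12 of 25 cases with a median of 31. STIP1, which links Hsp70 to Hsp90, had a height of 67 and was the only one of the 62 genes with a 3-unit element within 200 bp of the apex of a labelled peak, and GRPEL1, the exchange factor of mitochondrial Hsp70, had 59. Prefoldin and chaperonin helper genes were labelled in 9 of 15 cases (median 26) and mitochondrial folding and quality control genes in 4 of 6 (median 33).

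In the list of heat shock factors, which includes HSBP1 and HSBP1L1, 2 of 6 genes were labelled and 3 of 6 had an apex within 1 kb. The shares over all protein-coding genes were 30.0% and 39.3%. The 3 start-site peaks in this list were low in height. HSF1, the main activator of the heat shock response, had no label, and the apex at its start lay in a peak labelled BOP1 that was 17 high and 759 bp wide, higher than 6.05% of labelled peaks. HSF2 and the HSF1-binding protein HSBP1 had a height of 18 each, and HSF4, HSF5 and HSBP1L1 had no apex within 1 kb.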

How the data were processed

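Per the submitters' processing notes, the tools were Trimmomatic, Bowtie2 (hg19), SAMtools and SEACR. The authors called peaks against a paired control and retained those reproducible between the 2 replicates. For each peak they deposited a total signal, and a score that is its largest signal and is called height here. The columns are named otherwise, and this reading rests on the total being below height times width in all 15412 peaks. SEACR's norm union setting served for thresholding. Whether the deposited values were themselves scaled, and whether they stem from pooled reads, is not given in the sources used here. Gene symbols are the authors' promoter labels. In 34 peaks, none of them a chaperone peak, the apex interval lacks an end and its start was used.

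Members, families and gene lists were chosen with earlier results of these data known. The genes given in full were, in each family, those with the highest, lowest and widest peak, those with more than 1 peak, and a set of well-known chaperone genes and HSF1. Medians, shares and Wilson intervals were computed in Python 3.11.15 with pandas 2.3.3, numpy 2.4.6 and scipy 1.17.1, and figures with matplotlib 3.10.9. The motif search was tested on simulated sequences. Sequences come from GRCh37 and start sites from GENCODE release 44. Alternatives varied the list's threshold, the definition of a promoter peak, the summary, the unit, the window and the members. Peaks of uninduced cells and of the anti-RARA antibody were not analysed here. No tests were made.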

Additional observations from a re-analysis of the deposited data

How the results depend on the processing

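No paired analysis was possible because each peak has a single set of values, with nothing by replicate, and leaving out a replicate was not possible either. The share of protein-coding chaperone genes with a label, 47.7%, was 31.4% among peaks at or above the median height (all protein-coding genes 17.5%), 36.0% at or above the median width (22.4%) and 67.4% by apex within 1 kb (39.3%). The difference in median height, 5, was 4 with the highest peak per gene, 0.17 as a difference of mean log2 heights and 6.07 within 10 classes of width. In total signal the difference of medians was 568, small beside the medians themselves, 10647 in chaperone peaks and 10079 in the others. The difference in median width, 27 bp, was 2 bp with the highest peak per gene, 25 bp without HSPBP1 and HSPBAP1, 0.0131 as a difference of mean log2 widths, and reversed to −12 bp with neighbouring peaks merged. Pairs of heat shock units fell from 30.4% to 13% in a window of 100 bp (others 6.32%) and were at 50% in one of 500 bp (others 30.4%). For the 3-unit element, whose alternatives were added after seeing the data, the share of 15.2% was 6.52% within 100 bp (others 0.183%). With the highest labelled peak per gene, it was 11.6%, and the share of pairs was 25.6%, with no counterpart given for the others. In HSPB1 and HSP90AA1, the element within 200 bp of the apex lay in the lower of the gene's labelled peaks. Depth is unknown, and so is any scaling of the deposited signal, so that heights can be compared only within this list.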

Other observations

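Besides the chaperone peaks, 21 other labelled peaks held at least 3 heat shock units within 200 bp of the apex. The genes named here were chosen after their values were seen. The highest of these peaks were those of OSBP, an oxysterol-binding protein, with a height of 70, of STIP1 with 67 and of JMJD6, a hydroxylase of the nucleus, with 65. HIKESHI, the carrier that brings Hsp70 into the nucleus on heat shock, had a peak of height 27 and width 543 bp. IER5, an immediate early gene, had a peak of height 16 and width 188 bp. The 21 heights ran from 16 to 70 with a median of 27.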
